A study of Rattus norvegicus with 24 samples.

Results

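The cytosolic ribosomal protein genes were followed across 24 RNA-sequencing libraries of whole rat hypothalamus. Members were chosen by name, with earlier results of these data known. They are the gene symbols that start with Rpl or Rps followed by a digit, without the S6 kinase genes and Rps19bp1. Rpsa, Rplp0, Rplp1, Rplp2 and Fau were added by name. This gave 84 genes of the 13860 listed once in both deposited tables, of which 78 are core subunits and 6 are paralogs of a core subunit (Rpl22l1, Rpl36al, Rpl39l, Rpl3l, Rps27l and Rps4y2). After the filter on low counts, 71 members could be tested in each sex and 76 when the sexes were fitted together, and the rest are given as values only.

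The pups were Sprague Dawley rats at postnatal day 10 (PN10). Their dams ate a control diet (CON, 12% of digestible energy from lipids) or a high fat diet (HFD, 43%) from before mating until the tissue was taken. There were 4 groups of 6 libraries: daughters and sons of control dams (female and male CON-O) and daughters and sons of high fat diet dams (female and male HFD-O). No genetic change or drug was part of the design, and the pups were exposed through the dam in the womb and through lactation. The labels do not say which pups were littermates. The study's methods give fewer litters than libraries for each diet, so in both CON-O and HFD-O some libraries shared a litter. Libraries were treated as separate samples, and p-values over both sexes may therefore be too small. RNA came from the undivided hypothalamus, a mixture of neurons, glia and vessels, and fewer cells of a type cannot be told apart from less RNA per cell.

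A cytosolic ribosome is a particle of ribosomal RNA and about equal numbers of each ribosomal protein, arranged in a small subunit that reads the messenger RNA and a large subunit that joins the amino acids. Most vertebrate ribosomal protein messenger RNAs begin with a cytosine followed by a run of pyrimidines, the 5′ terminal oligopyrimidine (TOP) tract, through which the nutrient-sensing kinase mTORC1 controls their translation. A change in translation alone would not show in the RNA level, which is what was counted here.

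The start-site sequences of the members the results turn on are shown with this tract in view. Each line is the 30 bases from 15 before to 15 after the RefSeq start in build GRCr8, 5′ to 3′ on the gene's strand, and the capitals mark the longest unbroken run of C or T in that window. The first 7 genes carry a run of 8 or more somewhere in the window, and Rpl6 and Rpl39l do not. Such a run need not be a TOP tract, which begins with the first base of the RNA. The runs of Rps15a and Rpl23 lie wholly before the annotated start, and that of Fau begins at base 3 after it. The base at the start is C for Rplp0, Fau, Rpl17 and Rpl39l, and another letter for Rps15a, Rpl23, Rps10, Rps24 and Rpl6.
Rplp0: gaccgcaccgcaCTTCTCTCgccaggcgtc
Fau: ggacgtgcgcgcccccgCTCCTTCCTCTTT
Rps15a: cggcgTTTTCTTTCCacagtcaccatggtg
Rpl23: actaaCTTCCTTTCTgactctttccggacg
Rps10: gccgcgcacgCCCCTTCCTTTCCagcctcc
Rpl17: tagccttcgcgCTTCCTCTTCCTgttagcg
Rps24: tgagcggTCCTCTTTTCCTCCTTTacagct
Rpl6: taTTTTTacatcactagatggcgggtgaaa
Rpl39l: actgccaggccgTCCCgctatcctggtgtg
In build GRCr8 the windows on the plus strand are chr1:212779498-212779527 for Fau, chr18:70856261-70856290 for Rpl17 and chr16:96502-96531 for Rps24. Those on the minus strand are chr12:46718376-46718405 for Rplp0, chr1:181860270-181860299 for Rps15a, chr10:83272170-83272199 for Rpl23, chr20:5700730-5700759 for Rps10, chr12:41011676-41011705 for Rpl6 and chr10:5966607-5966636 for Rpl39l.

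Of the members, 69 had an entry in the RefSeq start table. A run of at least 8 letters that are each C or T, anywhere in the window, was present in 45 of them (65.2%). Among all 33468 start windows of the same length the share was 11.4%. On the opposite strand, where such a run reads as A or G, 1 member (1.45%) and 13% of all windows had it. The base at the start was C in 53.6% of the members and in 24.1% of all windows. These are descriptions of the letters near the annotated starts. The RefSeq start need not be the one used in hypothalamus, and no match says only that the letters are not in this window.

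Sex labels were checked with X-linked genes, and 2 libraries went against theirs. Eif2s3x, an initiation factor gene on the X chromosome, had 1661 to 2212 counts in 11 libraries labelled female and 1263 to 1476 in 11 labelled male, but 1305 in the library labelled female HFD-O replicate 3 and 1977 in the library labelled male HFD-O replicate 3. Ddx3x, an X-linked RNA helicase gene, was at 2629 counts in the former, below the other females (2689 to 3683), and at 3422 in the latter, above the other males (2503 to 3258). Both libraries carry the HFD-O label and the neighbouring numbers 17 and 18. They were kept as labelled and not exchanged, and every comparison that involves sex rests on them. Beside each comparison the members' median without them is given, but single genes are in part given only as labelled.

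The members took a small and narrow share of the libraries. Of 6132112 to 7994399 counts per library, they held 0.639% (male CON-O replicate 5, exact 95% binomial interval 0.634 to 0.645) to 0.784% (female CON-O replicate 2, 0.778 to 0.791), where the interval covers counting error only. The lowest, median and highest shares were 0.650%, 0.682% and 0.784% in female CON-O and 0.649%, 0.730% and 0.783% in female HFD-O. In males they were 0.639%, 0.676% and 0.751% in CON-O and 0.658%, 0.681% and 0.737% in HFD-O. All 4 groups overlapped over nearly their whole range, and their means were 0.693%, 0.726%, 0.691% and 0.692% in the same order (SD 0.0495, 0.0471, 0.0476 and 0.0312, n = 6 each).

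Although the proteins are needed in about equal numbers, the counts assigned to the genes were not equal. Mean levels ran from 0.221 CPM (counts relative to the library total, scaled by the trimmed mean of M-values, TMM) for Rpl35a to 724 CPM for Rplp0, the stalk protein that carries Rplp1 and Rplp2. The values are not divided by transcript length, which was not used here, so a gene can be compared between libraries, and the order of the genes is an order of counts and not of transcripts. The 26 members above 100 CPM held 83.5% of all member counts, and the 16 members under 2 CPM held few. The next by counts were Rpl3, near the peptidyl transferase centre (587 CPM), Rpsa, a small subunit protein also known as a laminin receptor precursor (411 CPM), Rpl4 (370 CPM) and Rps6, the substrate of the S6 kinases (343 CPM). The median was 34.9 CPM over 46 large subunit core genes and 27.1 CPM over 32 small subunit core genes.

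**Figure D1:**
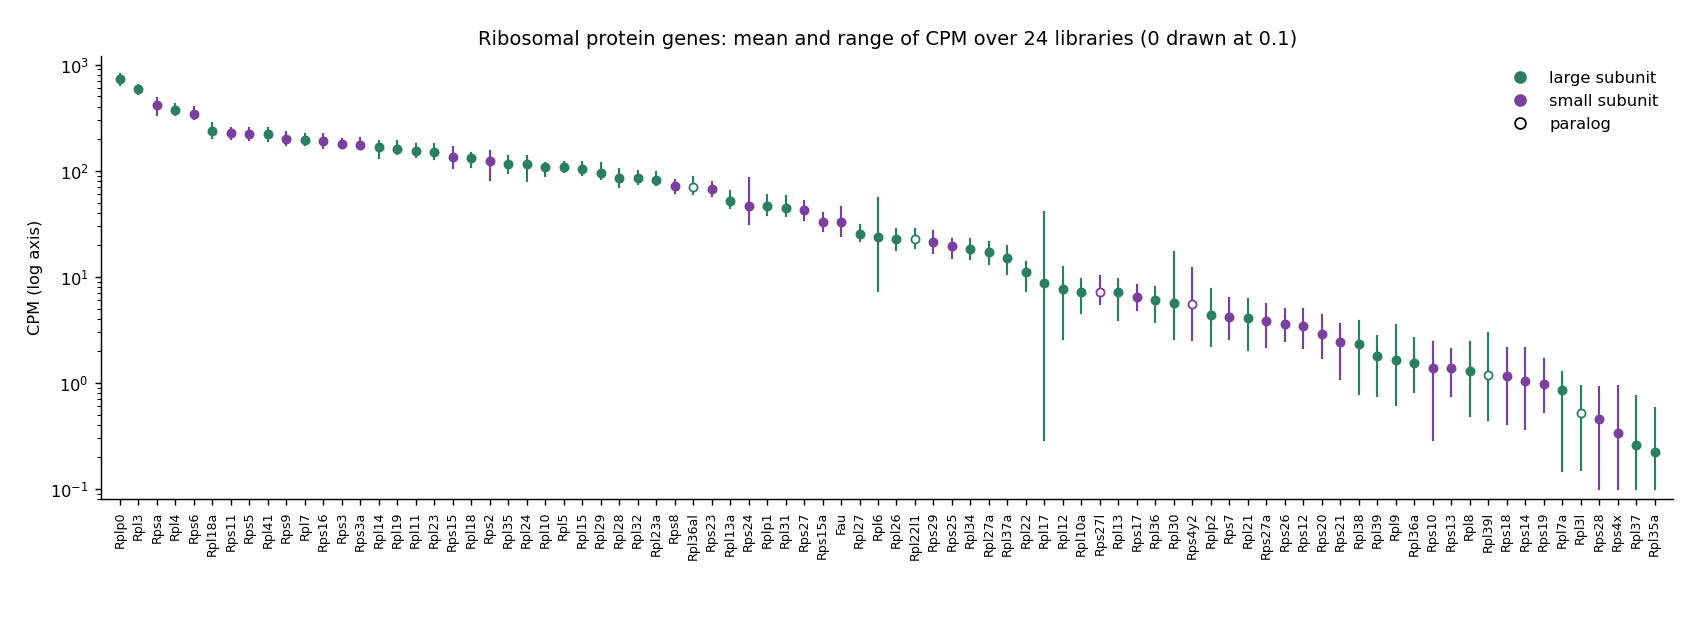
Mean (points) and lowest to highest value (lines) of CPM over the 24 libraries for each of the 84 members, on a log axis, large subunit in green, small subunit in purple, paralogs as open circles. Mean levels fall from 724 CPM for Rplp0 to 0.221 CPM for Rpl35a, and the line of Rpl17 is the longest among the tested genes.

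Among the lowest were genes that every ribosome needs. Rpl35a had 0 to 4 counts per library, Rpl37 0 to 5, Rps28 0 to 6 and Rps4x 0 to 7, and Rps14, Rps19 and Rpl7a were also below the filter. The lowest tested members were Rps18 (1.15 CPM), Rpl39l (1.196 CPM), Rpl8 (1.28 CPM), Rps13 (1.38 CPM) and Rps10 (1.39 CPM). Ribosomal protein genes have many near-identical processed copies, and RefSeq lists 878 pseudogenes named after the 84 members, up to 34 for Rps2 and a median of 10. How reads that fit a gene and its copies were counted is not given in the sources used here, so a low count is uncertain and is no measure of a missing transcript. The number of copies and the level were weakly related across members (Spearman's rho 0.11 over 84 genes, a description, genes not being independent).

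The paralogs are given beside their partners as CPM without length, which sets no order between them. Rpl22l1 had 22.5 CPM and Rpl22 11.1 CPM, and Rpl36al had 69.8 CPM and the X-linked Rpl36a 1.55 CPM. Rps27l, a p53 target in human cells, had 7.12 CPM and Rps27 42.1 CPM, and Rpl3l, which is known from striated muscle, had 1 to 7 counts per library. Rps4y2 (5.52 CPM) is placed on chromosome 4 and Rps4x on the X chromosome in RefSeq, and Rps4x is also an older symbol of a pseudogene, so which of these the row Rps4x counts was not tested. These pairs share sequence, and reads could be split between them.

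The abundant members moved together from library to library. For the 45 members with a mean of at least 20 CPM, each value on the log2(CPM + 1) scale was set against the mean of the same sex. The number of members above that mean was 44 of 45 in male CON-O replicate 2, 42 in female CON-O replicate 2 and male CON-O replicate 6, and 40 in male and female HFD-O replicate 4. It was 1 in female CON-O replicate 4 and 4 in female CON-O replicate 5, male CON-O replicate 5, female HFD-O replicate 6 and the library labelled male HFD-O replicate 3. High and low libraries were found in every group.

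The median deviation of the 45 members ran from -0.13 (female HFD-O replicate 6) to 0.16 (female HFD-O replicate 4). The median over all genes cannot serve as a yardstick for this range, because the TMM scaling centres it in every library. The SD of this median within groups was 0.095. Across the 24 libraries the median Pearson's r between members was 0.58, with quartiles of 0.43 and 0.71. Between the members and 7281 other genes of this level it was 0.046, with quartiles of -0.28 and 0.33. The same scaling can draw the latter median towards 0, so it is no yardstick for 0.58 either. No r within another gene list was computed. These are descriptions over 24 libraries, which share depth and tissue dissection for all genes. Within their own mean, most members were steady: the median coefficient of variation of the 45 was 0.0900, the lowest 0.0533 (Rps3), and above 0.15 only in Rpl6, Rps24 and Fau.

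The medians of mitochondrial gene lists lay on the same side of 0 as the members' median in most libraries, in 21 of 24 for the mitochondrial ribosomal proteins. The median deviation of 68 mitochondrial ribosomal protein genes ran from -0.16 to 0.17, with its lowest value in female CON-O replicate 4 and its highest in male HFD-O replicate 4, and that of the respiratory chain and ATP synthase subunits, a list added after the data were seen, from -0.22 to 0.18. Library totals and cell type markers also differ between these libraries. Among those with most members high, female HFD-O replicate 4 had 6132112 counts, male CON-O replicate 2 6641153 and male CON-O replicate 6 6783970. Among those with few members high, female CON-O replicate 5 had 6440992 counts, female CON-O replicate 4 6945776 and female HFD-O replicate 6 7551865. Summed oligodendrocyte markers were 4057 CPM in male CON-O replicate 6 and 1395 CPM in female CON-O replicate 2, both with most members high. They were 1442 CPM in female CON-O replicate 4, with few members high. The part of totals and markers in the shared movement was not tested. Of 12 pairs of an odd-numbered male library and the female library of the next number, 9 had medians on the same side of 0, and the labels do not say what joins neighbouring numbers.

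**Figure D2:**
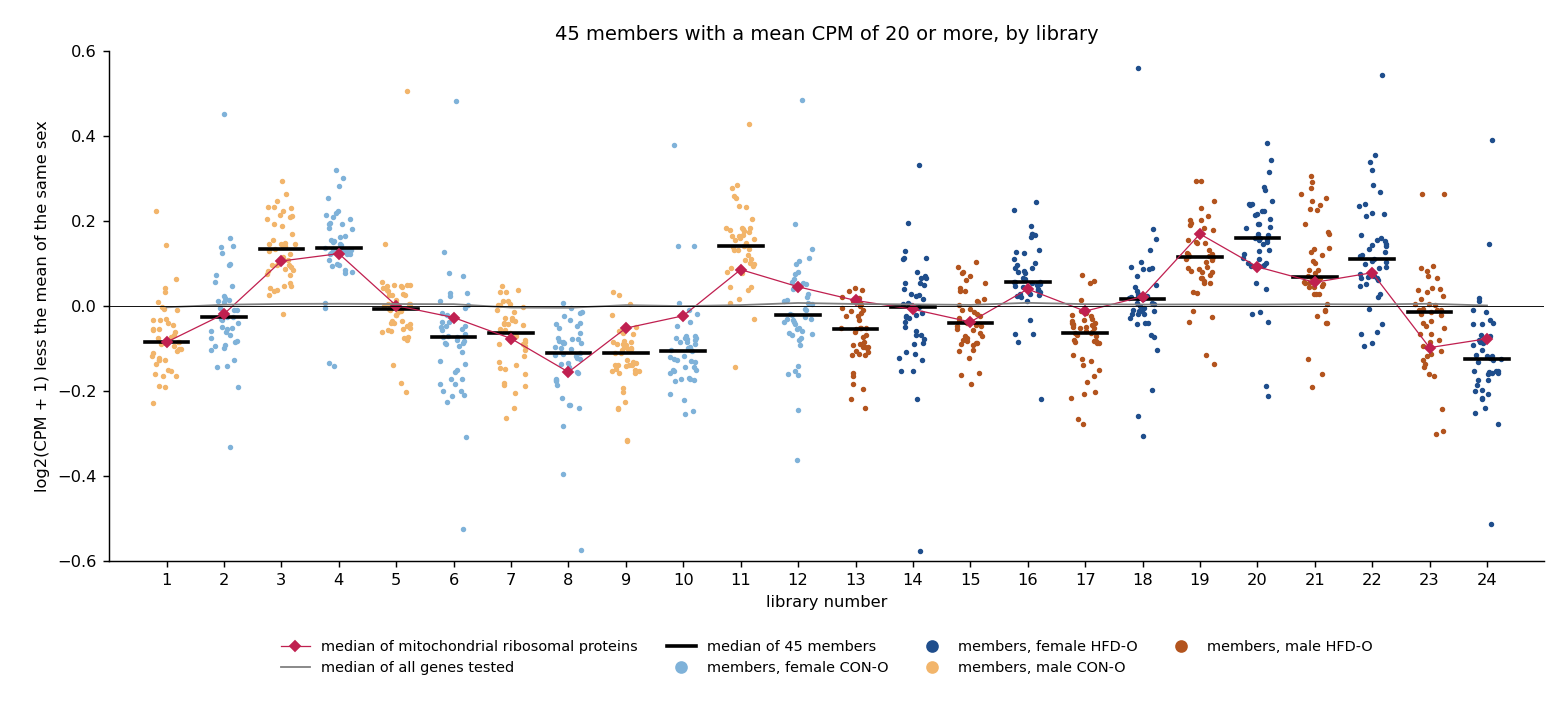
Deviation of log2(CPM + 1) from the mean of the same sex for 45 abundant members (dots, coloured by group), by library number, where odd numbers are labelled male and even numbers female, 1 to 12 are CON-O and 13 to 24 are HFD-O. Black bars are the members' medians, diamonds the median of 68 mitochondrial ribosomal protein genes and the grey line that of all genes tested, and 23 values beyond 0.6 are not drawn. Black bars run from -0.13 to 0.16 and diamonds from -0.16 to 0.17, on the same side of 0 in 21 of 24 libraries, and the grey line is centred by the TMM scaling.

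Some libraries stood apart in other genes. Male CON-O replicate 6 had 2 counts of Agrp and 36 of Pomc, the hormone genes of the arcuate nucleus, against at least 38 and 121 in all other libraries, and it had 11443 counts of the myelin gene Mbp. Male CON-O replicate 1 had 280 counts of Rn45s, the ribosomal RNA precursor, against 2260 to 3749 in the rest. Markers of the hypothalamus (14 of 15 listed) and of neurons (10 of 10) were in the tables with medians of at least 10 counts, and of 6 listed anterior pituitary markers 5 were in the tables and 4 of these had a median below 10 counts. Both male libraries were left out together as an alternative, whose values are given beside the results they touch.

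The question of the design was whether the maternal diet altered the pups' RNA in each sex. In females no member was called at an adjusted p of 0.05 by edgeR's quasi-likelihood test with Benjamini-Hochberg adjustment (0 of 71, with 0% of all 11409 genes called), by the likelihood ratio test, by DESeq2 or by limma-voom. Of all genes in females, the likelihood ratio test called 0.438%, DESeq2 0.175% and limma-voom 0%. At an unadjusted p under 0.05 there were 3 of 71 members, Fau, Rpl23 and Rpl41, all higher in HFD-O, against 7.09% of all genes. Higher values in HFD-O were found for 48 of 71 members, against 49.4% of all genes, with a median log2 fold change of 0.06 (all genes -0.00). Among the large subunit genes 29 of 41 and among the small subunit genes 17 of 25 were higher, and 2 of 5 paralogs.

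The count at an unadjusted p under 0.05 turned on single libraries. It was 16 of 72 tested without female CON-O replicate 2, the control library with the highest share of member counts, 14 of 71 without female HFD-O replicate 6, whose share was the lowest of its group, and 8 of 72 without female CON-O replicate 6. No member was called in these fits, and the median lay between 0.03 and 0.10 over all 12 left-out libraries. Without the library labelled female HFD-O replicate 3, the median was 0.06, 48 of 71 members were higher and 3 had an unadjusted p under 0.05.

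Fau, whose product is a ubiquitin-like protein fused to the small subunit protein eS30, had the smallest p in females. Its lowest, median and highest levels were 24.1, 28.5 and 35.0 CPM in female CON-O and 31.5, 37.2 and 42.1 CPM in female HFD-O. The groups overlapped through female CON-O replicate 3, and no HFD-O library fell below the control median. Fau was higher in HFD-O by 0.36 ± 0.09 on the log2 scale (SE, n = 6 per group), with an adjusted p = 0.244 by edgeR's quasi-likelihood test. The adjusted p was 0.0615 by the likelihood ratio test, 0.101 by DESeq2 and up to 0.530 with a library left out. The exact 2-sided permutation p of log2(CPM + 1) was 0.00866, not adjusted for the number of genes. Fau was picked for its small p, so neither that value nor the place of its libraries is further evidence.

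Rpl23, a large subunit protein at the face between the subunits, ran through 134, 138 and 161 CPM in female CON-O and 146, 156 and 177 CPM in female HFD-O. Only female CON-O replicate 2 reached into the HFD-O range. The log2 fold change was 0.18 ± 0.06 (SE), with adjusted p = 0.451 by edgeR's quasi-likelihood test.

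Rpl41, the smallest ribosomal protein, ran through 190, 214 and 236 CPM in female CON-O and 205, 239 and 245 CPM in female HFD-O. Female HFD-O replicate 6 lay apart, below 5 values between 238 and 245 CPM. The log2 fold change was 0.13 ± 0.06 (SE), with an adjusted p of 0.675 in edgeR. Rps16 (0.12), Rps15a (0.17) and Rps23 (0.12), 3 proteins of the small subunit, followed with adjusted p from 0.704 to 0.718 in edgeR. All 6 HFD-O libraries were above the CON-O median for each of these 3 genes, and the groups overlapped. The 3 genes were named for their small p in this comparison, so the place of their libraries is no further evidence. The share of all genes with that pattern was not computed.

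In males no member was called (0 of 71, with 0% of all 11476 genes called) by edgeR's quasi-likelihood test, the likelihood ratio test, DESeq2 or limma-voom. Of all genes in males, DESeq2 called 0.00871% and the other tests 0%. At an unadjusted p under 0.05 there was 1 of 71, Rps15a, against 4.93% of all genes. Higher values in HFD-O were found for 30 of 71 members, against 49.6% of all genes, with a median log2 fold change of -0.02 (all genes -0.00). Single libraries moved this: the count of higher members was 48 without male CON-O replicate 2 and 49 without male CON-O replicate 6, both control libraries in which nearly all abundant members were high. The median was 0.02 without either of them, and 0.01 with male CON-O replicates 1 and 6 left out together. Without the library labelled male HFD-O replicate 3 it was also 0.01, with 39 of 71 members higher.

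Rps15a, a small subunit protein, ran through 28.1, 29.3 and 34.0 CPM in male CON-O and 30.8, 34.0 and 39.3 CPM in male HFD-O. All 6 HFD-O libraries were above the CON-O median, and male CON-O replicate 2 was the highest control. Rps15a was named for its small p in this comparison, so the place of its libraries is no further evidence. The log2 fold change was 0.21 ± 0.07 (SE, n = 6 per group), with adjusted p = 0.949 in edgeR. In females the same gene ran through 27.003, 30.7 and 36.8 CPM in CON-O and 32.1, 35.7 and 39.9 CPM in HFD-O.

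The other small-p members in males were lower in HFD-O. Fau ran through 30.2, 34.5 and 45.4 CPM in male CON-O and 29.2, 30.8 and 36.5 CPM in male HFD-O, a log2 fold change of -0.16 ± 0.10 (SE). Rpl13 (-0.27), Rpl35 (-0.11) and Rpl29 (-0.09), all of the large subunit, had adjusted p of 0.957 in edgeR. Rpl6, also of the large subunit, had the widest change of the tested members, -0.81 ± 0.42 (SE, adjusted p = 0.957 in edgeR), on counts that fell into separate sets described further on.

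**Figure D3:**
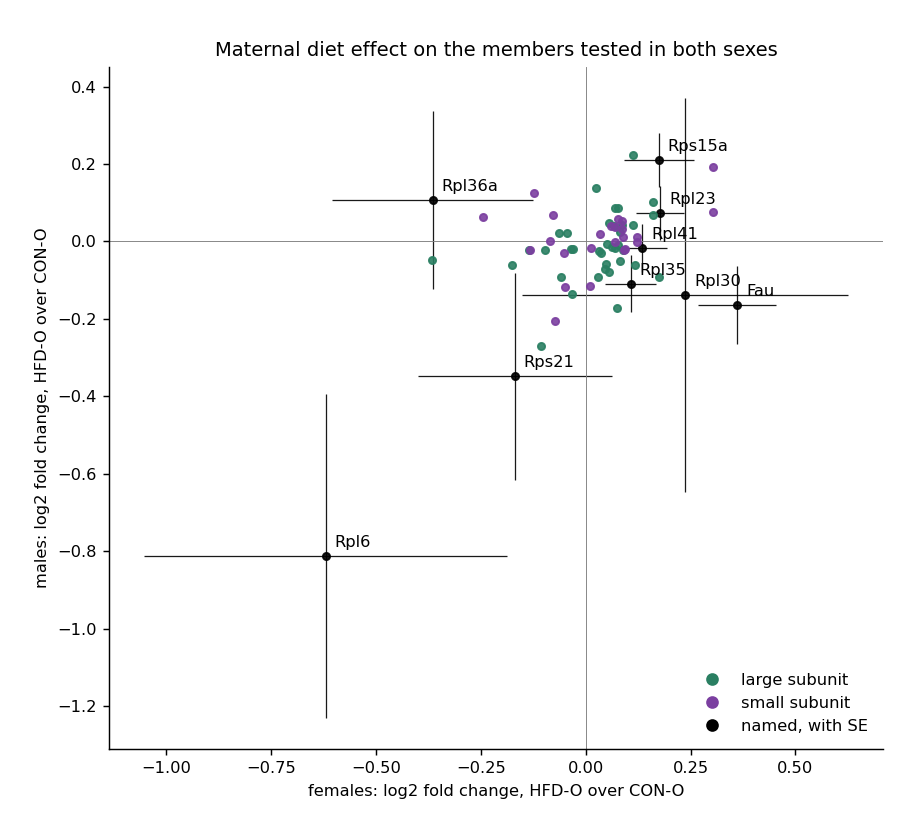
Log2 fold change of HFD-O over CON-O in females (x axis) and males (y axis) for the 70 members tested in both sexes, large subunit in green, small subunit in purple, and 9 labelled genes in black with the SE of each fit. Of the 70 points, 23 are higher in both sexes, 15 lower in both, 25 higher in females and lower in males, and 7 the reverse.

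Over both sexes no member was called by edgeR's quasi-likelihood test (0 of 76, against 0.189% of 11648 genes), and 4 of 76 had an unadjusted p under 0.05, against 12.7% of all genes. Higher values were found for 43 of 76 members, against 49.3% of all genes, and the median log2 fold change was 0.02. DESeq2 and limma-voom called no member, against 0.798% and 0.155% of all genes, and the likelihood ratio test called Rps10, against 0.798%. With the libraries labelled male and female HFD-O replicate 3 left out together, no member was called, 45 of 77 were higher and the median was 0.03, with 0.0343% of 11675 genes called. With each pair of neighbouring library numbers summed to 1 sample before the test, which leaves 6 per diet and was chosen after seeing the data, no member and 0% of 11648 genes were called, and 3 members had an unadjusted p under 0.05, against 7.81% of all genes. Whether neighbouring numbers are littermates is not given.

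Rps10, a small subunit protein that is ubiquitinated when ribosomes collide, was counted 2 to 15 times per library and was filtered out within each sex. It ran through 0.287, 1.15 and 1.44 CPM in female CON-O and 1.13, 1.66 and 2.45 CPM in female HFD-O, and in males through 0.418, 1.07 and 1.52 CPM in CON-O and 1.35, 1.86 and 2.12 CPM in HFD-O. In both sexes the highest control was above the lowest HFD-O library. It passed the filter through the HFD-O libraries, of which 9 of 12 reached the level needed (1.44 CPM in at least 6 libraries), against 1 of 12 CON-O libraries, so its test is conditional on the group where it is high. The log2 fold change was 0.74 ± 0.20 (SE, 12 libraries per diet), with adjusted p = 0.118 in edgeR, 0.0420 by the likelihood ratio test, 0.108 by DESeq2, 0.0922 to 0.205 with a library left out 0.322 without both libraries of doubtful sex and 0.466 with neighbouring libraries summed.

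Rps15a over both sexes had a log2 fold change of 0.19 ± 0.05 (SE), with adjusted p = 0.131 in edgeR, and between 0.0782 and 0.520 under the alternatives run, the highest with neighbouring libraries summed. Rpl23 had 0.12 ± 0.05 (adjusted p = 0.259 in edgeR), Rplp1, a stalk protein, 0.13 ± 0.07 (0.405) and Rpl19 0.08 ± 0.04 (0.406). The comparisons in each sex and over both use the same libraries, so these are not separate evidence.

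Further members named for a known role showed no called change. Rpl5 and Rpl11, which with 5S ribosomal RNA bind the p53 regulator Mdm2, had log2 fold changes over both sexes of 0.05 ± 0.04 and 0.02 ± 0.04 (SE). Rps6 had 0.05 ± 0.04, Rpsa 0.05 ± 0.05, Rplp0 -0.01 ± 0.04, Rplp2 -0.05 ± 0.15 and Rps27a, which is made as a fusion with ubiquitin, 0.03 ± 0.13. Their adjusted p ran from 0.594 to 0.974 in edgeR.

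Genes that work beside the ribosomal proteins were read from fixed lists, and no gene of them was called for diet in either sex or over both by edgeR's quasi-likelihood test. Of 34 tested ribosome biogenesis factors, 19 were higher in female HFD-O and 23 in male HFD-O, with medians of 0.01 and 0.04 on the log2 scale. Of all genes tested, 49.4% were higher in female HFD-O and 49.6% in male HFD-O. Of 22 tested translation elongation and other TOP genes, 18 and 15 were higher, with medians of 0.03 and 0.02. Of 22 translation initiation factors, 17 and 18 were higher, with medians of 0.03 and 0.03. Of 15 genes of RNA polymerase I and its factors, 8 and 10 were higher. Of 17 mTORC1 and S6 kinase genes, 12 were lower in females and 11 in males, with medians of -0.02 and -0.03. Of 10 genes of the p53 response to ribosomal stress, 7 and 9 were lower, with medians of -0.02 and -0.01. Over both sexes Rps6kb2, which encodes the second S6 kinase, had a log2 fold change of -0.31 ± 0.08 (adjusted p = 0.109 in edgeR). Utp15, a factor of early ribosomal RNA processing, had -0.19 ± 0.05 (SE, adjusted p = 0.117 in edgeR). Of 68 mitochondrial ribosomal protein genes 44 were higher in females and 41 in males, and of 69 respiratory chain and ATP synthase subunits, the added list, 58 and 30.

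Marker genes of other cells differed in level between the diets beside these values, and of the lists given here only Rarres2 of the ependyma passed an adjusted p of 0.05. All 13 tested leptomeningeal markers were higher in HFD-O in each sex, and their summed level ran from 172 to 531 CPM in female CON-O, 302 to 972 CPM in female HFD-O, 164 to 1021 CPM in male CON-O and 286 to 1520 CPM in male HFD-O. All 6 tested erythroid markers were higher in HFD-O in each sex, with sums from 656 to 1981, 792 to 6301, 542 to 3668 and 561 to 5875 CPM in the same order. All 7 ependymal markers were higher in HFD-O in each sex, with sums from 75.5 to 107, 87.1 to 116, 53.2 to 120 and 88.3 to 127 CPM, and Rarres2 was called over both sexes (log2 0.90 ± 0.18, SE, adjusted p = 0.0341 in edgeR), but not with neighbouring libraries summed (adjusted p = 0.392 in edgeR). Of 10 neuron markers, 9 were lower in HFD-O in each sex, with sums from 7306 to 8522, 7017 to 7950, 7055 to 8602 and 6698 to 7966 CPM. Higher in HFD-O were also 7 of 8 oligodendrocyte markers in females and 8 in males, and 5 and 6 of 6 endothelial markers. All 4 tested markers of midbrain dopamine neurons were higher in each sex, with median log2 fold changes of 0.44 and 0.87. Of 14 hypothalamus markers, 10 were lower in females and 7 in males, and of 6 thalamus markers, 1 and 4. Diet values of the other marker lists are not given here. Among the 13 leptomeningeal and 7 erythroid markers in the tables, only the erythroid gene Ahsp had a median below 10 counts. Their part in the members' values was not tested.

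The difference between the sexes in the diet effect was tested directly. No member was called by edgeR's quasi-likelihood test (0 of 76, with 0% of 11648 genes called) or by any of the other tests run. At an unadjusted p under 0.05 there were 2 of 76, Fau and Rpl35, against 1.54% of all genes. The male effect was above the female effect for 23 of 76 members, against 50.9% of all genes, with a median difference of -0.06. The median was -0.10 without female CON-O replicate 2, with 15 members above, -0.03 without male CON-O replicate 2, -0.02 without male CON-O replicate 6 and -0.04 with male CON-O replicates 1 and 6 left out together. It was also -0.04 with the libraries labelled male and female HFD-O replicate 3 left out together, with 27 of 77 members above.

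For Fau the effect in males was below that in females by a log2 difference of -0.52 ± 0.14 (SE, male less female), with an adjusted p of 1.00 in edgeR. With male CON-O replicates 1 and 6, its 2 highest male controls at 39.2 and 45.4 CPM, left out together it was -0.38, and the male effect alone was -0.02. For Rpl35, a large subunit protein near the exit of the nascent chain, the difference was -0.22 ± 0.10, with an adjusted p of 1.00 in edgeR. Rpl35 ran through 105, 114 and 128 CPM in female CON-O, 111, 124 and 138 CPM in female HFD-O, 104, 120 and 132 CPM in male CON-O and 95.1, 107 and 130 CPM in male HFD-O. All 4 groups overlapped. Without the libraries labelled male and female HFD-O replicate 3 the difference was -0.51 for Fau and -0.21 for Rpl35, and Rpl35 no longer had an unadjusted p under 0.05.

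**Figure D4:**
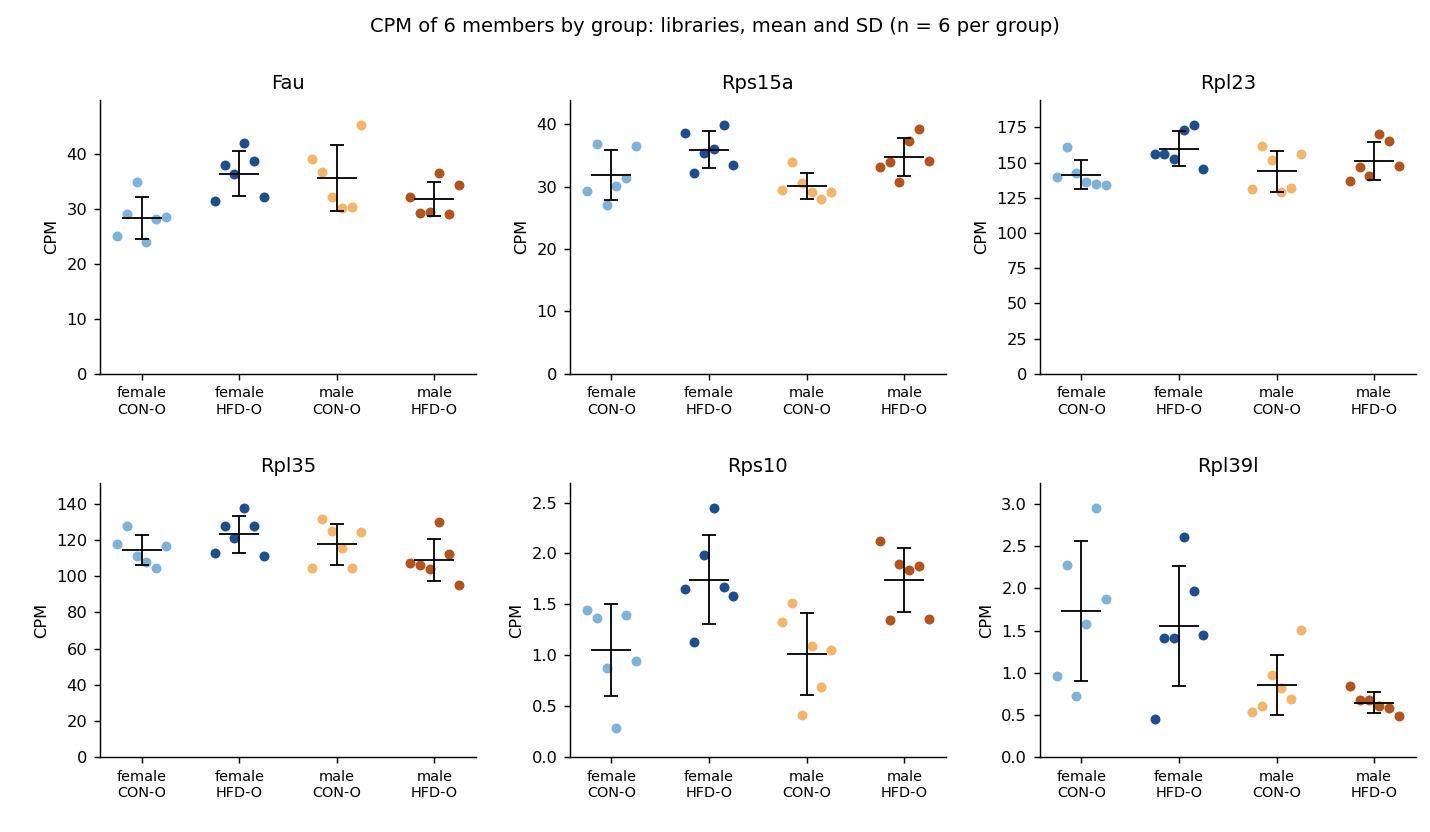
CPM of 6 members in each library (dots), with the mean and SD of each group of 6 (black), on axes that start at 0. Fau is higher in female HFD-O than in female CON-O and lower in male HFD-O than in male CON-O, Rps15a, Rpl23 and Rps10 are higher in HFD-O on average in both sexes, and Rpl39l is lower on average in males.

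Between males and females, averaged over the diets, no member was called by edgeR's quasi-likelihood test (0 of 76, against 0.0343% of 11648 genes), and 3 of 76 had an unadjusted p under 0.05, Rpl39l, Rps24 and Rpl28, all lower in males, against 1.89% of all genes. Higher values in males were found for 14 of 76 members, against 51.4% of all genes, with a median of -0.03. The count was 28 without female CON-O replicate 2, 24 without male CON-O replicate 5 and 23 without male CON-O replicate 4, female HFD-O replicate 4 or female HFD-O replicate 5. With the libraries labelled male and female HFD-O replicate 3 left out together it was 19 of 77, the median was -0.03 and no member was called. Eif2s3x was called lower in males as labelled (log2 -0.45 ± 0.06, SE, adjusted p = 0.000756 in edgeR), and without both libraries its difference was -0.55 ± 0.03 (adjusted p = 2.22e-12).

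Rpl39l, a testis-enriched paralog of the exit tunnel protein Rpl39 in mice and humans, ran through 0.730, 1.73 and 2.95 CPM in female CON-O and 0.450, 1.43 and 2.61 CPM in female HFD-O. In males it ran through 0.530, 0.750 and 1.51 CPM in CON-O and 0.492, 0.642 and 0.848 CPM in HFD-O. The highest values were female and the sexes overlapped, on 3 to 19 counts per library. It passed the filter through the females, of which 7 of 12 reached the level needed, against 1 of 12 males, so this test too is conditional on the group where it is high. The log2 difference was -1.12 ± 0.25 (SE, 12 libraries per sex), with adjusted p = 0.250 in edgeR, 0.0204 by the likelihood ratio test, which called 0.0515% of all genes, and 0.172 by DESeq2. Without female HFD-O replicate 1, its lowest female library, the adjusted p was 0.0499 in edgeR, which is a call. It was up to 0.707 with another library left out, 0.647 without both libraries of doubtful sex and 1.00 by limma-voom.

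Of the X-linked members, Rpl39 was among the 6 with the smallest p, with a log2 difference of -0.27 ± 0.18 (SE). Rpl36a had -0.16 ± 0.16 and Rpl10 0.03 ± 0.04, none of the 3 past the adjusted threshold in edgeR, and Rps4x was too low to test. Rps24, essential for the small subunit and mutated in human Diamond-Blackfan anaemia, had -0.40 ± 0.16 and Rpl28 -0.12 ± 0.05, each with an adjusted p of 1.00 in edgeR. The values of these genes are as labelled, with both libraries of doubtful sex kept.

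A few members had a wide gap in their counts, with libraries on either side of it. Rpl17 and Rpl30 were singled out after their values were seen. Rpl17, a large subunit protein of the exit tunnel, had 2 to 14 counts in 18 libraries and 189 to 270 in the other 6, with no value between. The 6 were female CON-O replicates 1 and 2, male CON-O replicate 2, female HFD-O replicates 5 and 6 and male HFD-O replicate 5, so that each diet held 3. The gap of 3.71 on the log2 scale was among the widest of the 10112 genes with a mean above 5 CPM (0.0297% had a gap at least as wide), and its fitted diet effect over both sexes was -0.19 ± 0.81 (SE).

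Rpl6 fell into 3 sets. It had 51 to 81 counts in 11 libraries, 186 to 239 in 9 and 316 to 363 in 4, with medians of 67, 201 and 335. The highest set was male and female CON-O replicates 1 and 2 alone, which are the libraries numbered 1 to 4. The lowest set held 4 CON-O and 7 HFD-O libraries. Over both sexes the log2 fold change was -0.72 ± 0.33 (SE), with adjusted p = 0.375 in edgeR, and groups overlapped.

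Rpl30, a large subunit protein whose yeast counterpart regulates its own splicing, had 16 to 42 counts in 20 libraries and 69 to 112 in 4. The 4 were male and female CON-O replicate 6 and male and female HFD-O replicate 4, 1 in each group. These are libraries 11 and 12 and libraries 19 and 20, so that all 12 pairs of neighbouring numbers fell in the same set. For Rpl17 the pairs fell in the same set in 10 of 12 cases, for Rpl6 in 9 and for Rps24 in 6. Most libraries were in the low set of Rpl30, Rpl17 and Rps24, so many pairs would match whatever joins them. How many was not computed. Rps24 had 227 to 310 counts in 18 libraries and 417 to 606 in 6, of which 5 were female. A gap at least as wide was found in 0.188% of the 10112 genes for Rpl6, in 0.712% for Rpl30 and in 3.08% for Rps24. The gap of Rps24 was the narrowest of these, and 311 genes had one at least as wide. Rps4y2 had a gap as wide as that of Rps24 (2.92% of genes), with 1 library above it, at 80 counts.

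**Figure D5:**
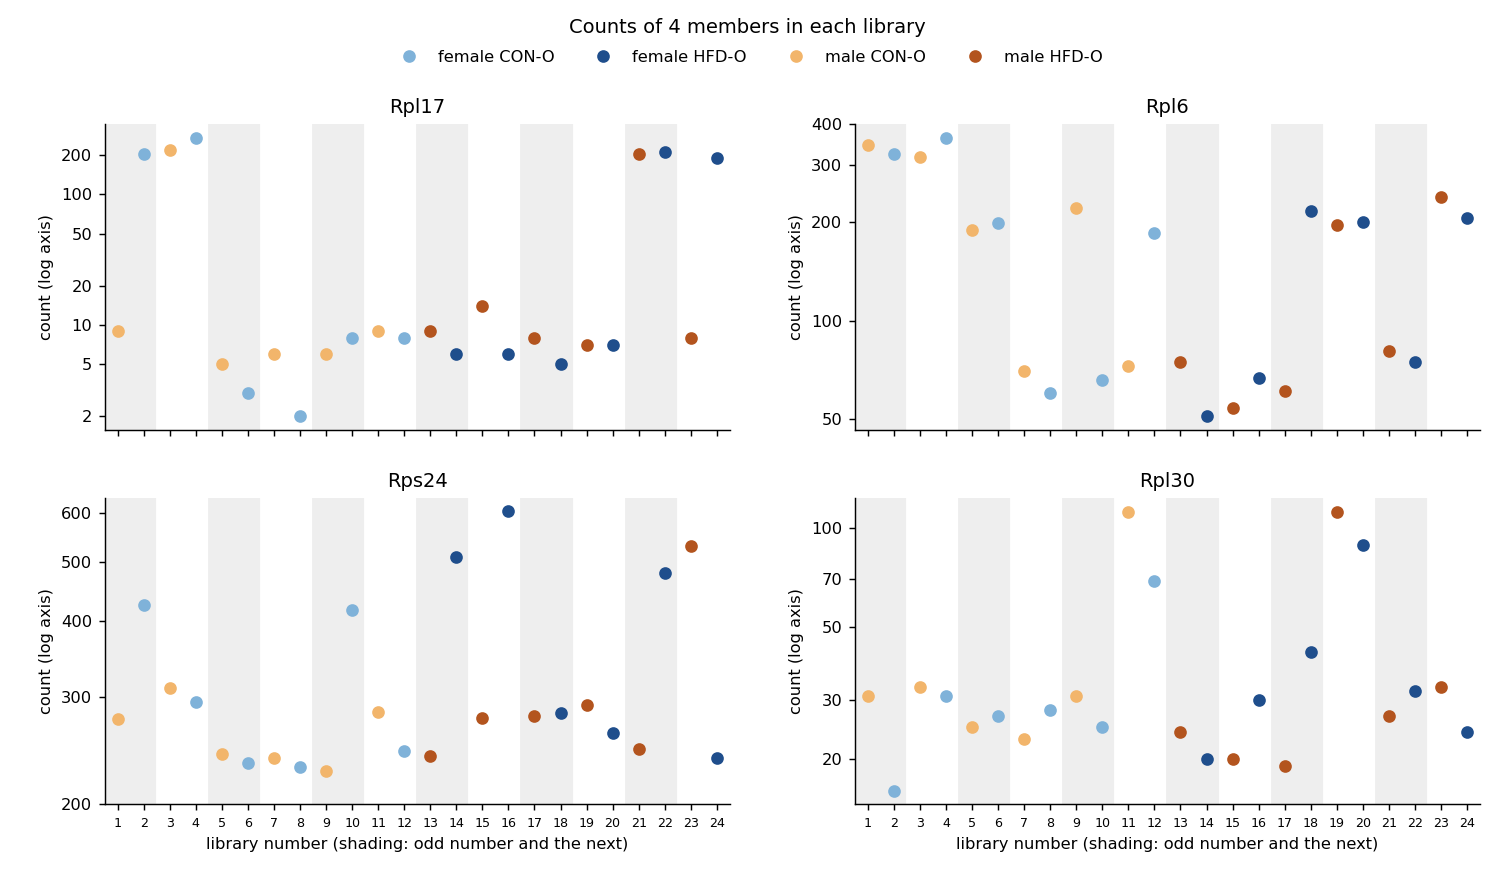
Counts of Rpl17, Rpl6, Rps24 and Rpl30 in each library, on log axes, by library number and coloured by group, with shading that joins each odd-numbered male library and the next female one. Rpl17 lies at 2 to 14 or 189 to 270 counts, Rpl6 at 51 to 81, 186 to 239 or 316 to 363, Rps24 at 227 to 310 or 417 to 606, and Rpl30 at 16 to 42 or 69 to 112, and for Rpl30 both libraries of each shaded or unshaded pair lie in the same set.

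The highest sets of Rpl17, Rps24 and Rpl30 held libraries of both diets and of both sexes as labelled, and that of Rpl6 held CON-O libraries of both sexes. Library totals ran from 6272623 to 7551865 in the 6 libraries with high Rpl17 and from 6132112 to 6783970 in the 4 with high Rpl30, and their part in the sets was not tested. The libraries in the high sets also differed from gene to gene: male CON-O replicate 6 was high for Rpl30 and low for Rpl6 and Rpl17, and male CON-O replicate 2 was high for Rpl6 and Rpl17 and low for Rpl30. The sequence reads behind these counts were not used here.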

How the data were processed

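Whole hypothalamus of PN10 offspring was sequenced on an Illumina platform, 24 libraries in 4 groups of 6. The authors describe FastQC, Trimmomatic, Bowtie2 and edgeR, and the submitters' processing notes name FastQC, TopHat, edgeR and build rn6. For the read counter, annotation, strand and multiply mapping reads, settings were not given in the sources used here. Whole-number counts per gene were deposited in 2 tables, 1 per sex. A further 12 library columns in each were not used, and columns with the authors' own comparison (fold changes and p-values) were not used either.

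The counts were read into R 4.3.3 and fitted by edgeR 4.0.16: filterByExpr (minimum count 10, total 15), TMM (factors 0.978 to 1.02), and the quasi-likelihood test, Benjamini-Hochberg adjusted over every gene that passed the filter and called at 0.05. Alternatives were the likelihood ratio test, DESeq2 1.42.0, limma 3.58.1 voom, other scalings and filters, each library left out, and the libraries whose X-linked genes went against their sex labels left out together, and neighbouring library numbers as a block or summed. Scripts were tested on simulated data. Members and lists were chosen with earlier results of these data known. Named were the 6 members with the smallest p in each of 5 comparisons and the 5 highest and 5 lowest tested. Members called by any test, paralog pairs and members of known role were named too. Rpl10 was named as X-linked and Rps3 for its low coefficient of variation. Any other member is named as untested or was singled out after its values were seen. Library totals ran from 6132112 to 7994399. Start-site sequences are RefSeq's (GRCr8), with 82 members matched by symbol and 2 by an older symbol.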

Additional observations from a re-analysis of the deposited data

Results flagged for a closer look

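Among 184 values of a named member, or of all members together, in a group of 6 libraries, 17 had a library far from its 5 companions, measured as its gap to the nearest of them over the range of the group. Chance flags about 1 in 20 groups. Genes that move together repeat the same library, so the 17 are not independent. The members tested included Rpl17, Rpl30, Rps4y2, Rps2 and Rpl12, which were named after their values were seen. The flags of Rpl17 and Rpl30 were partly fixed by that choice, so 17 of 184 cannot be set against 1 in 20.

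Female CON-O replicate 2 was high for Rpl11 (178 CPM, others 142 to 155), Rpl23 (161 CPM, others 134 to 143) and Rpl4 (426 CPM, others 354 to 373). Female HFD-O replicate 6 was low for Rpl23a (73.6 CPM, others 83.5 to 88.8) and Rpl41 (205 CPM, others 238 to 245). Female HFD-O replicate 4 was high for Rpl22l1 (25.1 CPM, others 20.1 to 21.8) and Rpl29 (111 CPM, others 86.7 to 95.7). Male HFD-O replicate 5 was high for Rps16 (222 CPM, others 177 to 186), and male CON-O replicate 6 for Rplp2 (7.69 CPM, others 3.40 to 4.796). Female CON-O replicate 1 was high for Rps13 (2.09 CPM, others 0.940 to 1.24).

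Members with a gap in their counts were also picked out. Rpl17 stood at 32.9 CPM in male CON-O replicate 2 (others 0.697 to 1.36) and 29.3 CPM in male HFD-O replicate 5 (others 0.983 to 1.88). Rpl30 stood at 10.8 CPM in female CON-O replicate 6, 14.5 CPM in female HFD-O replicate 4, 16.9 CPM in male CON-O replicate 6 and 17.1 CPM in male HFD-O replicate 4, with no other value above 5.95 CPM. Rps24 stood at 65.1 CPM in male HFD-O replicate 6 (others 33.9 to 44.5).

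The diet effect differed between the sexes at an unadjusted p under 0.05 for Fau (male less female -0.52 on the log2 scale) and Rpl35 (-0.22). Neither passed adjustment over all genes in edgeR's quasi-likelihood test (adjusted p = 1.00 for both).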

How the results depend on the processing

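No member was called in females, in males or for the difference in diet effect between the sexes under any alternative test, scaling, filter or left-out library. Over both sexes 1 member was called by the likelihood ratio test (Rps10, 0.74 on the log2 scale, adjusted p = 0.0420), and 0 by each other alternative. For the level between the sexes, 1 member was called by the likelihood ratio test (Rpl39l, -1.12, adjusted p = 0.0204), and 0 to 1 with a library left out (without female HFD-O replicate 1, Rpl39l, adjusted p = 0.0499 in edgeR's quasi-likelihood test). Over left-out libraries the members' median log2 fold change ran from 0.03 to 0.10 in females, -0.04 to 0.02 in males and -0.00 to 0.04 over both, so its sign in males and over both rests on single libraries. None of the 6 members with the smallest p in each comparison changed direction, and the other named members were not run gene by gene. Counts at an unadjusted p under 0.05 ran from 2 to 16 in females, 1 to 3 in males, 3 to 7 over both and 1 to 4 for the difference in diet effect with a library left out, and were 5 in females by library totals or with no filter. The mean summed level was 7012 CPM, 7003 as a share of all counts and 6905 for the core genes alone. With the libraries labelled male and female HFD-O replicate 3 left out together, 0 members were called in each comparison over all libraries. Leaving out those 2 or male CON-O replicates 1 and 6 together, the blocks below, and using only members of at least 20 CPM were chosen after seeing the data. For diet, no paired analysis was possible because the labels give no number that joins libraries across diets. Over both sexes, summing each pair of neighbouring library numbers before the diet test left 0 members called, with a median of 0.02 and 3 members at an unadjusted p under 0.05 in place of 4. Between the sexes, a replicate block by neighbouring library numbers left 0 members called for the level and 0 for the diet effect, with 7 and 4 members at an unadjusted p under 0.05 in place of 3 and 2. Deviations from the group means correlated at 0.02 to 0.38 within the 12 pairs, 9 of them over 0.1, and 14 of 24 libraries were most like their neighbour among the other sex, a hint from the data and not the design. Reads shared with pseudogenes limit every member, and members under about 2 CPM rest on few counts.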
